A study of Mus musculus with 82 samples.

Results

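The genes described here are 46 protein-coding genes of the germ line and of meiosis, taken by symbol from a fixed list, out of 21523 protein-coding genes on chromosomes 1 to 19 and X. All 46 symbols were found in the GRCm38.p6 annotation of mouse. Their positions were compared with both peak lists that the study provides from ChIP-seq in mouse embryonic stem cells, which are cultured cells of the early embryo that keep the ability to form every tissue. The first list holds 15026 peaks of Adnp, a protein with zinc fingers and a homeodomain. The design text links it with 3 replicates of cells whose Adnp carries a FlagAvi tag. All its peak names share 1 prefix, so whether it draws on all 3 replicates or on 1 library is not known here. The second holds 2047 peaks of HP1γ, the heterochromatin protein encoded by Cbx3, and holds, by its name, peaks without the Adnp motif. It is tied to cells with FlagAvi-tagged Cbx3, in 3 replicates that are otherwise wild type and in 3 replicates that also lack Adnp (Adnp KO), and its peak names point to the Adnp KO. All these cells shared the hybrid 129-C57BL/6 background, grew in 2i medium with LIF and received no treatment, and the labels do not say how many clones they came from. Each protein has a single list that does not keep its replicates apart, so the spread between replicates cannot be given, and the read depth behind a peak is unknown. No list of genes was tested: counts are set beside the same counts over the other 21477 protein-coding genes, and 95% Wilson intervals cover counting error only. The genes, the promoter words and the comparison lists were chosen with earlier results of these data known. The intervals do not cover that choice.

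Germ cells carry a set of genes that other cells keep silent. Their products build the axes and the synaptonemal complex of meiotic chromosomes, break and repair DNA for crossing over, and make piRNAs, small RNAs that silence transposons in the testis. In embryonic stem cells many of these genes are known to be held silent by a variant Polycomb complex that binds DNA through E2F6 and the MGA and MAX pair, and by DNA and histone H3K9 methylation. HP1 proteins bind methylated H3K9, and Adnp is known to bring HP1 and the remodeller Chd4 to its own DNA sites.

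HP1γ peaks lay at the starts of 8 of the 46 genes (17.4%, 95% Wilson interval 9.09% to 30.7%), against 0.731% of other protein-coding genes (157 of 21477). A peak was counted at a start if any part of it lay within 1 kb of an annotated transcription start. The 8 genes were Dazl, Boll, Hormad1, Sycp2, Stag3, Mael, Tdrkh and Tex15. For Tex15, whose strand the promoter table used here does not give, either gene end was taken, and the peak lay at the lower-coordinate end. Adnp peaks lay at the starts of 9 genes (19.6%, 10.7% to 33.2%), against 3.91% of other genes. They were Boll, Mael, Sycp2, Tdrkh, Dmc1, Mei4, Meioc, Stk31 and Tuba3a. Both lists had a peak at the starts of Boll, Mael, Sycp2 and Tdrkh.

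The bases before the starts of the genes with HP1γ are shown because the peaks lie on or beside them. Each sequence runs over the 250 bases before an annotated start, 5′ to 3′ on the strand of the gene (RefSeq, GRCm38.p6). Capitals mark TCCCGC, a word bound by E2F6, and CACGTG, the E-box bound by MGA with MAX, each searched on both strands, so that GCGGGA is also marked. The words can share an end base, and Tex15 had no entry in the table.

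Hormad1, chr3:95559427-95559676, plus strand: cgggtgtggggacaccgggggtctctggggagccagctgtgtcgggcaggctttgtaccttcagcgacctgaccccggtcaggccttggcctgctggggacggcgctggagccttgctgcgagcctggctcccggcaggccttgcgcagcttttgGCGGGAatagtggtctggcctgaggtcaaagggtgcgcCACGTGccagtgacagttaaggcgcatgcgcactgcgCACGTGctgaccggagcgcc
Mael, chr1:166238745-166238994, minus strand: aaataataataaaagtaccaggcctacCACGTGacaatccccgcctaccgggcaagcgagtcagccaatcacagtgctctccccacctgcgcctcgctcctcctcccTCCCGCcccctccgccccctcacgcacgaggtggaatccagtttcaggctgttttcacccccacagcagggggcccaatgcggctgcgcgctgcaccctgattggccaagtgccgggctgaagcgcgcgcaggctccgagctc
Stag3, chr5:138280259-138280508, plus strand: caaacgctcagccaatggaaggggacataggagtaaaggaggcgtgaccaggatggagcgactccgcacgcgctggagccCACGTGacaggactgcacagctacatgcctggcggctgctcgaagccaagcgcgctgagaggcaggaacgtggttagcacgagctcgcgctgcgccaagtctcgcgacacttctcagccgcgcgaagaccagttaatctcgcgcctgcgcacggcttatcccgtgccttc
Boll, chr1:55362729-55362978, minus strand: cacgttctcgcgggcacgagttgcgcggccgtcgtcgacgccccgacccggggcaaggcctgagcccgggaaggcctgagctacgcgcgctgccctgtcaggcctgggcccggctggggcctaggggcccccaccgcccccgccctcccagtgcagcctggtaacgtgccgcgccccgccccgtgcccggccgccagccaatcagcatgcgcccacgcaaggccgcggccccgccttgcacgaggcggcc
Dazl, chr17:50293621-50293870, minus strand: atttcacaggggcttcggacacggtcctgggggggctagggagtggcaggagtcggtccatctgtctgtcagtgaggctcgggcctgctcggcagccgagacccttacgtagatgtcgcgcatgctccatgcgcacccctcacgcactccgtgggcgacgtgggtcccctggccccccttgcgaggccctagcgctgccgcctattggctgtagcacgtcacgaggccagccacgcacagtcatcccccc
Sycp2, chr2:178407659-178407908, minus strand: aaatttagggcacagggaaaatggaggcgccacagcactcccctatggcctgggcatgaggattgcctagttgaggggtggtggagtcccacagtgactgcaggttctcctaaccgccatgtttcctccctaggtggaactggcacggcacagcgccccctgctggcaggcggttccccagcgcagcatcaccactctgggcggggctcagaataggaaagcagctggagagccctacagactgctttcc
Tdrkh, chr3:94412994-94413243, plus strand: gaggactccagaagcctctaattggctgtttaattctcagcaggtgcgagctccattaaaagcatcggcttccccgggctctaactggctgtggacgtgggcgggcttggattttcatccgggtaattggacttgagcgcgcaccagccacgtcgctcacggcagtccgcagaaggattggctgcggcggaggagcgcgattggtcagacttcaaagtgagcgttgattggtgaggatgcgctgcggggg

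Hormad1 held 1 E2F6 word and 2 E-boxes in these bases, Mael held 1 of each and Stag3 held 1 E-box. The Boll, Dazl, Sycp2 and Tdrkh stretches shown held neither. The HP1γ peak covered all 250 bases of the Stag3 stretch, 172 of Boll, 159 of Dazl, 87 of Tdrkh, 69 of Hormad1 and 21 of Sycp2. It covered none of the Mael stretch, where it began 73 bp past the start. The Adnp peaks of Sycp2, Boll and Mael covered 239, 236 and 91 of the bases shown.

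**Figure D1:**
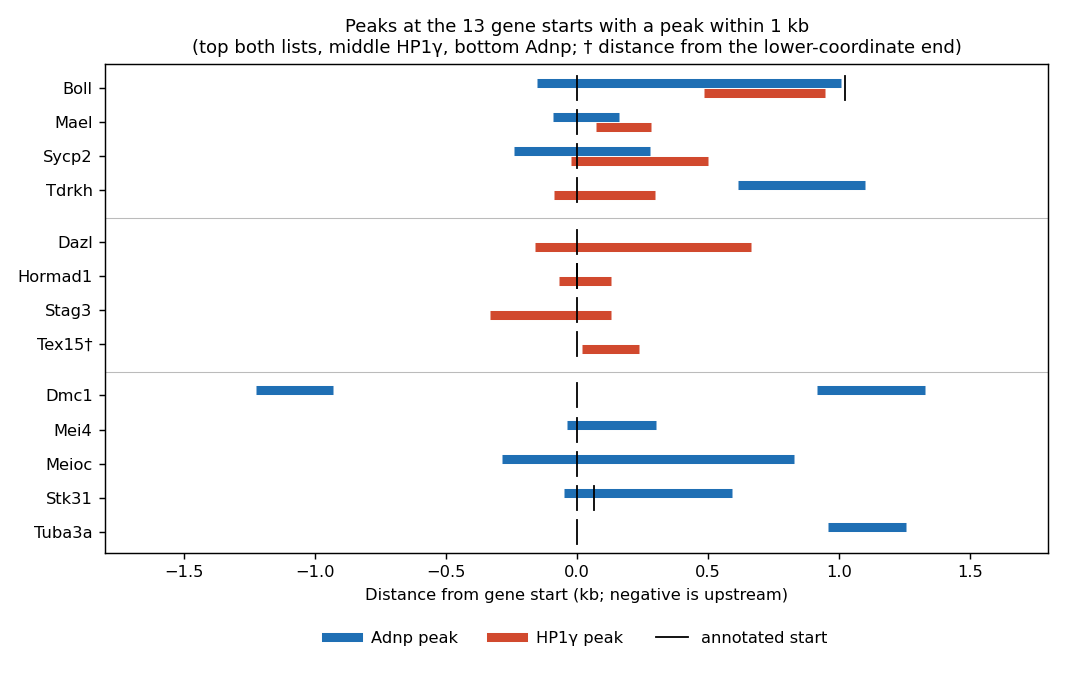
Extent of Adnp peaks (blue) and HP1γ peaks (red) around the 13 starts with a peak within 1 kb, with distance from the start in kb on the horizontal axis and annotated starts as black lines. Distance runs from the outermost start of a gene, and for Tex15, without a strand, from its lower-coordinate end. The 4 genes at the top had both kinds of peak, the 4 in the middle HP1γ alone and the 5 at the bottom Adnp alone.

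Genes of germ cell RNA binding and of meiotic entry had HP1γ at 2 of 5 starts. Dazl, which encodes an RNA-binding protein needed for germ cell development, had an HP1γ peak at chr17:50292957-50293779 that covered its start. At 823 bp this was the widest of the 8 peaks, whose median was 423 bp against 305 bp for the list. The next HP1γ peak was 2940 kb away, and no Adnp peak lay inside Dazl or within 20 kb of its ends. Boll, a relative of Dazl, has 2 annotated starts, and its HP1γ peak at chr1:55362807-55363266 lay between them, 79 bp before the inner one. An Adnp peak at chr1:55362743-55363906 covered the whole of it. Its score of 86.3, a value per peak given by the authors without its kind, was rank 515 of the 15026 Adnp peaks, the highest score among all peaks inside or within 20 kb of the 46 genes. Boll held a further 2 Adnp peaks deep inside the gene, at chr1:55251475-55251797 (score 14.7) and chr1:55349432-55349748 (score 22.2).

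Meioc, which keeps germ cells in the meiotic programme, had an Adnp peak over its start at chr11:102665300-102666412 (score 22.2) and its nearest HP1γ peak was 95 kb away. A second Adnp peak of Meioc lay inside the gene at chr11:102668932-102669258 (score 12.8), and another, 4.51 kb past its other end, lay inside the neighbour Ccdc43 (chr11:102686755-102687095, score 12.5). Stra8, the retinoic acid target that starts meiosis, had 1 Adnp peak 6.06 kb outside the gene (score 14.8), which lay nearer to Wdr91. Dnd1, another germ cell RNA-binding protein gene, had no peak of either list within 20 kb.

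Of the 7 genes of the meiotic chromosome axis and cohesin, 3 had HP1γ at the start. The HP1γ peak of Hormad1, an axis protein gene, covered the start at chr3:95559608-95559806. No Adnp peak lay within 5 kb of its ends, while 2 lay farther inside, at chr3:95566901-95567202 (score 11.3) and chr3:95574643-95574923 (score 14.7). Sycp2, which encodes a lateral element protein, had HP1γ at chr2:178407157-178407679 and Adnp at chr2:178407380-178407897 (score 27.4), both over the annotated start and overlapping each other. Its next HP1γ peak was 2240 kb away. Stag3 encodes a cohesin subunit of meiosis, as do Rec8 and Smc1b. Its HP1γ peak at chr5:138280177-138280640 covered the annotated start inside the longer gene model, 7.66 kb from the nearer end of that model. This peak also lay 151 bp from an end of the neighbour Gpc2 and 240 bp from its start, so 1 peak is counted for both genes. Hormad2, Rec8 and Sycp3 had Adnp peaks beyond 5 kb, at 7.76, 7.53 and 9.54 kb, and Smc1b had no peak of either list within 20 kb. The Rec8 peak at 7.53 kb lay 66 bp from an end of Irf9, and the Sycp3 peak lay inside Chpt1.

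The piRNA pathway and its cytoplasmic nuage were represented by 11 genes, of which 2 had HP1γ at the start and 2 more had it inside. Mael, needed for transposon silencing, had HP1γ at chr1:166238460-166238671 and an overlapping Adnp peak at chr1:166238585-166238835. That Adnp peak had a score of 4.14, rank 15018 of 15026, so it stood near the bottom of its list. Tdrkh, a Tudor domain partner of PIWI proteins, had HP1γ over its start at chr3:94413157-94413542 and Adnp 0.616 kb past the start at chr3:94413860-94414343 (score 36.4). These did not overlap. The HP1γ peak of Piwil2, which encodes a PIWI protein, lay at chr14:70429170-70429477, 7.42 kb from an end. Tdrd9, an RNA helicase gene, had its HP1γ peak at chr12:112003107-112003415, 31.5 kb past the start, and an Adnp peak 1.54 kb past the start (chr12:111973102-111973416, score 31.4). Tdrd1, Tdrd6 and Mov10l1 had Adnp peaks beyond 5 kb, at 6.07, 8.93 and 11.7 kb. These lay inside the neighbours Ccdc186, Slc25a27 and Panx2, in the same order. Ddx4, Asz1, Piwil1 and Piwil4 had no peak of either list within 20 kb.

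Genes of meiotic recombination had HP1γ at 0 of 8 starts, which with 8 genes allows a share of up to 32.4% (upper Wilson limit), and Adnp at 2 of the 8. Mei4, a factor for DNA breaks, had an Adnp peak over its start at chr9:81863634-81863972 (score 14.6), 962 kb from the next Adnp peak. Dmc1, the meiotic recombinase gene, had Adnp peaks on both sides of its start, at chr15:79606041-79606332 (0.932 kb before it, score 6.10) and chr15:79603782-79604194 (0.915 kb past it, score 36.9). It had another 0.375 kb outside its far end, at chr15:79560796-79561122 (score 13.9), and 1 deep inside at chr15:79579737-79579989 (score 10.6). The strand of Spo11, the gene of the enzyme that makes meiotic breaks, was not given. Its nearest Adnp peak lay inside it, 2.53 kb from an end, at chr2:172979911-172980341 (score 9.36). Mei1 had an Adnp peak 18.4 kb away, which lay nearer to Srebf2. Meiob, Msh4, Msh5 and Rnf212 had no peak of either list within 20 kb.

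The central region of the synaptonemal complex had no HP1γ peak within 20 kb of any of its 4 genes, against 5.85% of other genes with one. At starts, 0 of 4 genes allows a share of up to 49.0% (upper Wilson limit). Syce2 held 2 Adnp peaks, at chr8:84874452-84874895 (2.19 kb past the start, score 53.9) and chr8:84883901-84884240 (score 22.6), while Syce1, Sycp1 and Tex12 had none within 20 kb. Among genes that attach telomeres to the nuclear envelope, Majin and Terb1 had Adnp peaks beyond 5 kb, at 5.45 and 14.5 kb. The Terb1 peak lay inside the neighbour Dync1li2.

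The remaining 9 genes serve other germ cell functions. Tex15, needed for meiotic repair and transposon silencing, had HP1γ at chr8:33516708-33516926, 19 bp inside its lower-coordinate end. Its nearest HP1γ neighbour was 29.0 kb away, the closest such spacing of the 8 peaks. An Adnp peak lay 4.81 kb from the other end of Tex15 (chr8:33587379-33587693, rank 8044 of 15026 by score). Stk31 had Adnp over its start at chr6:49395490-49396130 (score 10.0). Tuba3a, a testis tubulin gene, had Adnp 0.959 kb past the start at chr6:125284826-125285122 (score 8.96) and 2.99 kb beyond its other end (chr6:125274884-125275283, score 8.88). Tex14, which forms intercellular bridges, held 6 Adnp peaks inside, 26.8 to 101 kb past its start, with scores from 9.03 to 22.2. From the start on, they lay at chr11:87431824-87432378, chr11:87445528-87445861, chr11:87464410-87464758, chr11:87468916-87469359, chr11:87491030-87491633 and chr11:87505984-87506273, in the same order as the scores of 15.1, 22.2, 15.8, 9.03, 20.2 and 12.3. A further one lay 1.74 kb before its start, inside the neighbour Rad51c (chr11:87402931-87403328, score 32.3). Brdt, Rpl10l, Slc25a31, Tex101 and Tuba3b had no peak of either list within 20 kb.

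**Figure D2:**
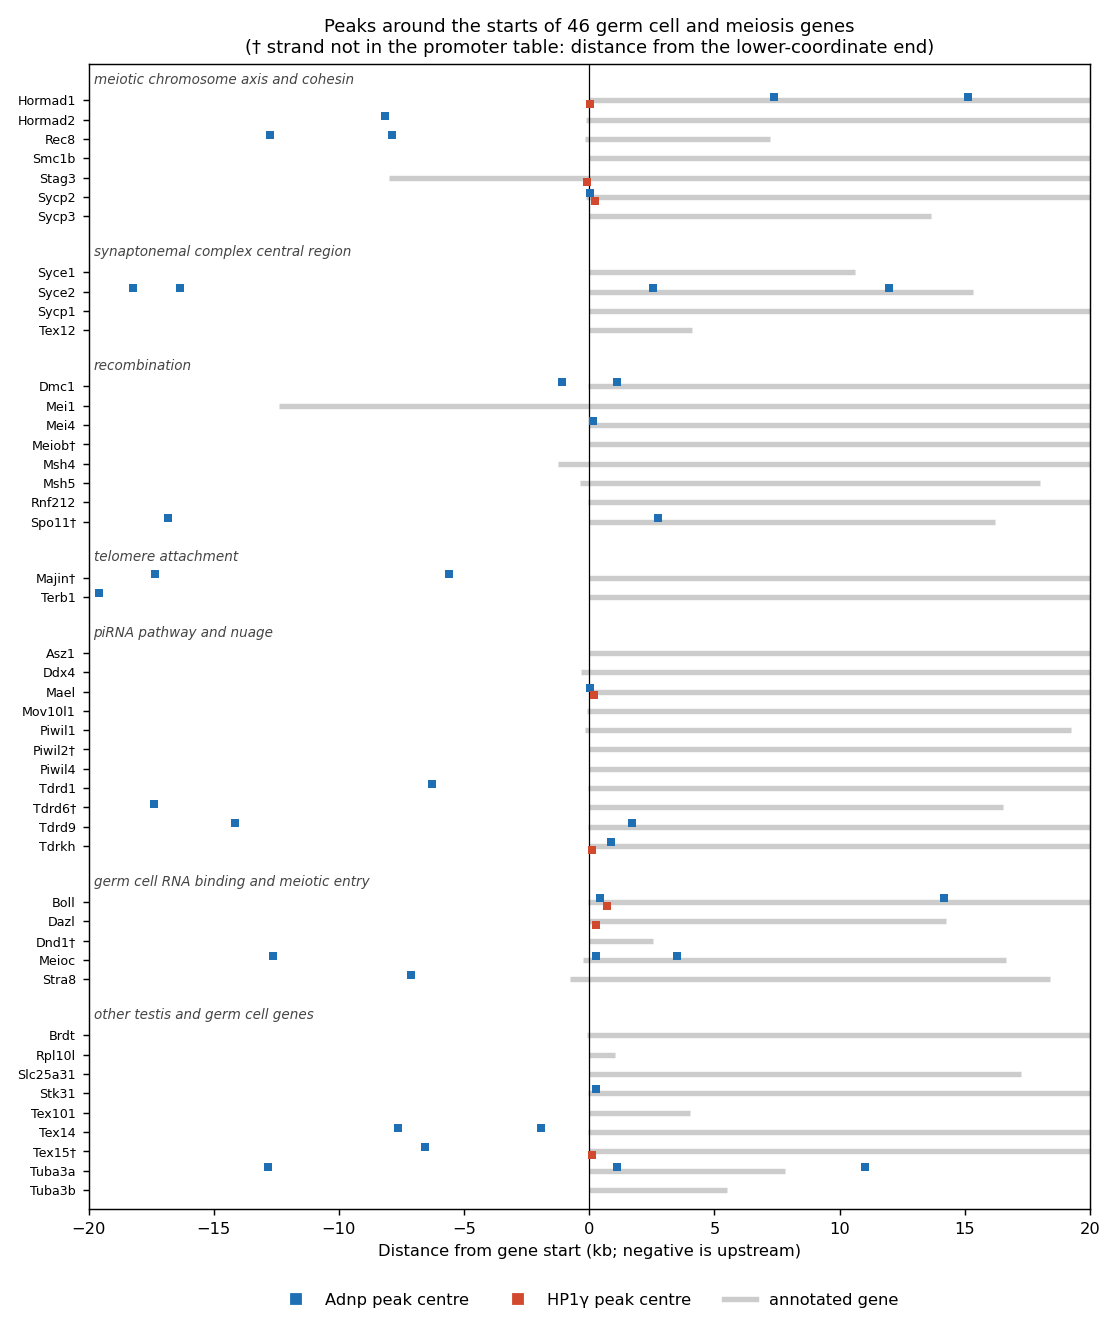
Centres of Adnp peaks (blue) and HP1γ peaks (red) within 20 kb of the start of each of the 46 genes, grouped by role, with the annotated gene as a grey bar and distance from the start in kb on the horizontal axis. Distance runs from the outermost start of a gene, and from the lower-coordinate end for the 7 genes without a strand (dagger). The 8 HP1γ peaks at starts lie near 0, while peaks farther inside long genes or beyond their far ends fall outside the plot.

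Across all 46 genes, 18 had a peak of either list inside or within 5 kb of an end, 10 had Adnp peaks beyond 5 kb and within 20 kb alone, and 18 had neither. These counts over both lists together have no share of other genes beside them, so whether they differ from other genes was not tested. Shares for each list alone follow below. In the last 18 genes the nearest Adnp peak was 21.7 to 1220 kb away (median 63.0 kb) and the nearest HP1γ peak 50.7 to 1250 kb (median 378 kb). The 46 genes had 59 Adnp peaks inside or within 20 kb, with a median score of 16.4 where the whole list has 21.2. Of these, 24 lay nearer to an end of another protein-coding gene. Neither this count nor the median score was compared with Adnp peaks around other protein-coding genes. HP1γ had 10 peaks inside or within 20 kb of the 46 genes, all inside the genes or across an end.

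By position, Adnp peaks lay inside 15 of the 46 genes (32.6%) against 20.6% of other genes. They lay within 1 kb of either end in 9 (19.6% against 5.35%), within 5 kb in 14 (30.4% against 19.3%) and within 20 kb in 26 (56.5% against 41.2%). The 95% Wilson interval of the Adnp share within 5 kb includes the 19.3% of other genes. The lower limits of the Adnp intervals inside genes and within 20 kb lay only just above the shares of other genes. HP1γ peaks lay inside 10 genes (21.7% against 2.82%). They lay within 1 kb of either end in 7 (15.2% against 0.824%), within 5 kb in the same number (15.2% against 2.01%) and within 20 kb in 9 (19.6% against 5.85%). Stag3 is counted at a start and not within 5 kb of an end, because its start lies inside its gene model. The germ cell genes were longer than other genes, with a median of 39.4 kb against 17.4 kb, which gives a peak more room inside them. Per Mb of gene, they held 11.5 Adnp peaks against 7.20, and 4.42 HP1γ peaks against 0.759. The median distance from a gene to the nearest peak was 10.6 kb for Adnp against 30.7 kb, and 130 kb for HP1γ against 422 kb.

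**Figure D3:**
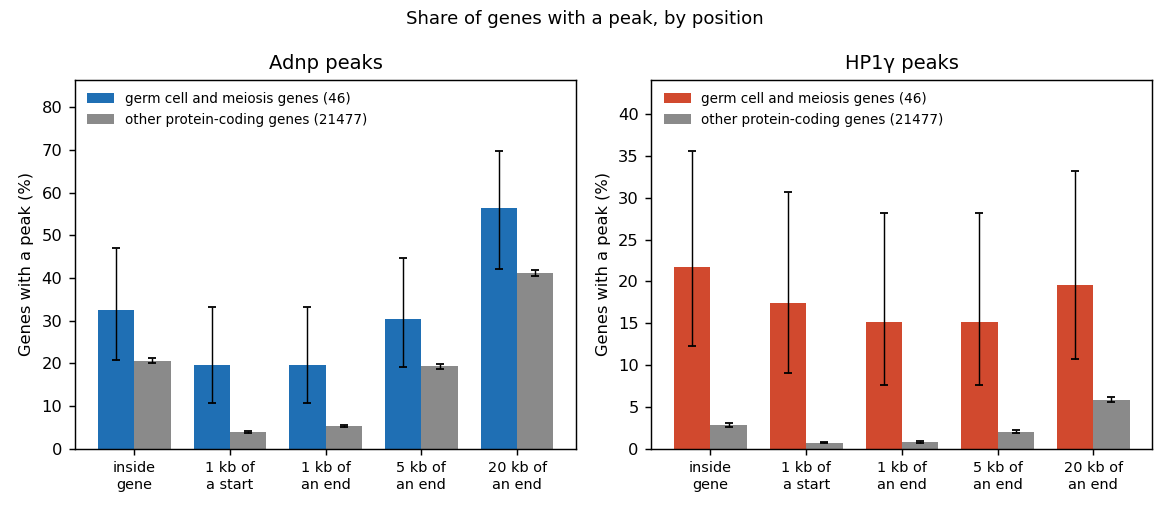
Percentage of genes with an Adnp peak (left) or HP1γ peak (right) inside the gene or within the stated distance of a start or of either end, for the 46 germ cell and meiosis genes (coloured) and 21477 other protein-coding genes (grey), with 95% Wilson intervals. For HP1γ the germ cell bar is nearly as high within 1 kb of a start (17.4%) as within 20 kb of an end (19.6%).

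The peaks lay at starts more often than at the other end of the gene. Of the 39 genes with a strand, 7 had HP1γ within 1 kb of a start and 0 within 1 kb of the far end, where 0 of 39 genes allows a share of up to 8.97% (upper Wilson limit). The same counts for Adnp were 9 and 1. Among other genes with a strand, HP1γ lay at 0.748% of starts and 0.220% of far ends, and Adnp at 3.62% and 2.07%. The HP1γ peak itself covered an annotated start in Dazl, Hormad1, Stag3, Sycp2 and Tdrkh, which is 5 of 8 (95% Wilson interval 30.6% to 86.3%). That interval includes the share of the 157 other genes with HP1γ at a start, 35.7%. The centre of the HP1γ peak lay downstream of the start in 5 of the 7 genes with a strand (35.9% to 91.8%). The distance ran from 28 bp in Hormad1 to 252 bp in Dazl. The centre lay upstream in Stag3 (100 bp) and Boll (308 bp before the inner start). In other such genes it was downstream in 37.2% of 129, which is also within the interval.

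The 8 genes with HP1γ at the start were set beside the 38 without. The HP1γ list holds, by its name, peaks without the Adnp motif, so HP1γ at sites with the motif is not counted. The 38 may include genes with such sites. How this moves the shares with Adnp was not tested. Adnp lay at the start in 4 of the 8 (95% Wilson interval 21.5% to 78.5%) and in 5 of the 38 (13.2%, 5.75% to 27.3%). Among other protein-coding genes it did so in 17.2% of the 157 with HP1γ at a start and in 3.81% of those without. The HP1γ peak overlapped an Adnp peak in Boll, Mael and Sycp2, 3 of 8 genes (13.7% to 69.4%). This interval includes the 17.8% of the 157. Since the HP1γ peak names point to cells without Adnp, an overlap of the lists does not show both proteins in the same cells. Gene length was alike in its middle, with medians of 38.6 kb with HP1γ and 39.4 kb without, and ran from 14.2 to 120 kb and from 1.02 to 342 kb.

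Promoters were described over 300 bases, from 250 before to 50 past each annotated start, for the 39 genes with an entry, and a gene with several starts counted once if any held a word. The E2F6 word was found in 21 of 39 genes (53.8%) against 28.7% of 17235 other protein-coding genes. The E-box was found in 17 (43.6%) against 8.94%, and both words in 1 promoter in 10 (25.6%) against 3.09%. With HP1γ at the start, 4 of 7 genes had the E2F6 word (Boll, Hormad1, Mael and Stag3), and the same 4 had the E-box. In Boll the words belonged to different starts. Without HP1γ at the start, 17 of 32 genes had the E2F6 word (53.1%), 13 the E-box (40.6%) and 7 both (21.9%). The 129 other genes with HP1γ at a start had the E2F6 word in 41.9% and the E-box in 17.8%. The words CGCCCTCT and CGCCCCCT from the core of the Adnp motif were in 1 and 4 of the 39 promoters, against 4.53% and 9.40% of others. CGCCCCCT was in the promoters of Mael and Sycp2, which had HP1γ at the start, and of Msh5 and Syce2, which had neither list there. A match is a description of the letters and not a bound site.

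CG dinucleotides, the sites of DNA methylation, numbered from 10 in Sycp2 to 39 in Boll among the 7 promoters with HP1γ, with a median of 25.0. Those 7 were Boll at 39, Stag3 at 30, Dazl at 28, Tdrkh at 25, Hormad1 and Mael at 24 and Sycp2 at 10, so 6 of 7 lay above the median of 18 of the 32 germ cell genes without HP1γ. The median was 24.0 in other genes with HP1γ and 15.0 in other protein-coding genes. The E2F6 word and the E-box each hold a CG, so their frequency moves with this number, and its part in the word counts was not tested.

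**Figure D4:**
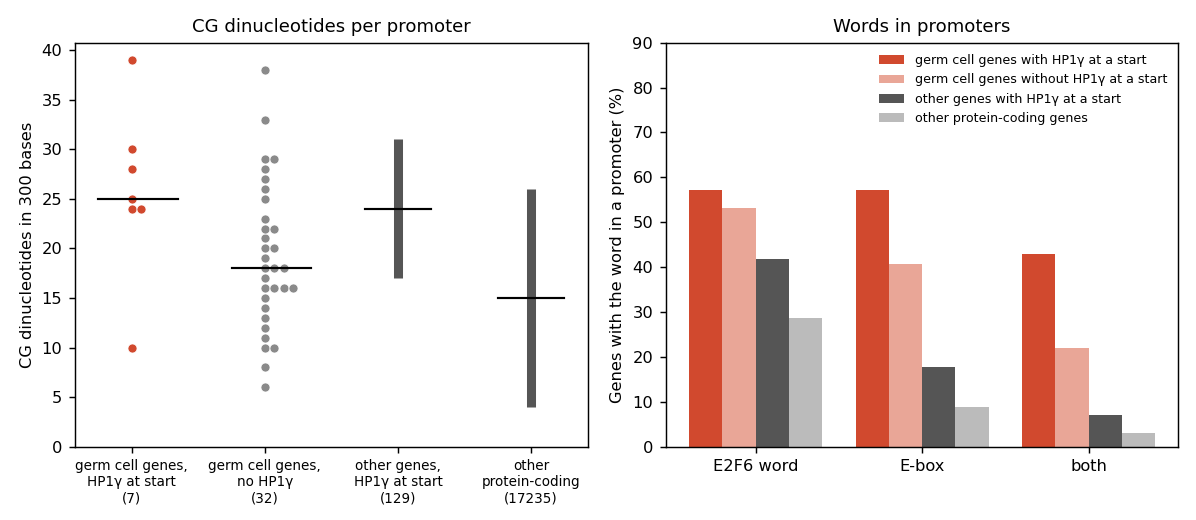
Left, CG dinucleotides in the 300-base promoter for each germ cell gene with an entry (points, highest of its starts; black line, median), split by HP1γ at the start, beside the median and quartiles (thick bar) of other genes. Right, percentage of genes whose promoter holds the E2F6 word, the E-box or both, for the same 4 groups; the E-box was found in 40.6% of germ cell genes without HP1γ and in 8.94% of other protein-coding genes.

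Some germ cell promoters held the E2F6 word, the E-box or both without a peak of either list within 1 kb of the start. Ddx4, a helicase gene and marker of germ cells, Sycp3, a lateral element gene, and Tdrd9 are shown for comparison with the sequences above, over the same 250 bases and with the same capitals.

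Ddx4, chr13:112652311-112652560, minus strand: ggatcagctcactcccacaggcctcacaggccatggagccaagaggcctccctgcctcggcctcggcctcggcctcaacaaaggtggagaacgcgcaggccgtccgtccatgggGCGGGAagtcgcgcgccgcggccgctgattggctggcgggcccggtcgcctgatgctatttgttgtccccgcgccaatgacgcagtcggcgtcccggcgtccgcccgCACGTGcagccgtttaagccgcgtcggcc
Sycp3, chr10:88459337-88459586, plus strand: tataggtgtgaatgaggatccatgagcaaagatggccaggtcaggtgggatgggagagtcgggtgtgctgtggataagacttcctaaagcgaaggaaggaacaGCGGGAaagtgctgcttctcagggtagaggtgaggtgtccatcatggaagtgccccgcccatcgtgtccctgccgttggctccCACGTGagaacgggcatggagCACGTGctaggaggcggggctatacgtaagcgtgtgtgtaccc
Tdrd9, chr12:111971309-111971558, plus strand: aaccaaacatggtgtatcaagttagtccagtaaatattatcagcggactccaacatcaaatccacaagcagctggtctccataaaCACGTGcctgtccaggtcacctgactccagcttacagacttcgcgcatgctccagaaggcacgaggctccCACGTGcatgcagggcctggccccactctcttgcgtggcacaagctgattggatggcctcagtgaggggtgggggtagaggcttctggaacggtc

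Ddx4 had 1 of each word in these bases and 38 CG dinucleotides in its promoter, yet its nearest HP1γ peak was 80.0 kb and its nearest Adnp peak 122 kb away. Sycp3 had 1 E2F6 word and 2 E-boxes, and its nearest HP1γ peak was 997 kb away. Tdrd9 had 2 E-boxes and no E2F6 word, and neither list had a peak within 1 kb of its start. An Adnp peak lay 1.54 kb past that start, and the HP1γ peak inside the gene lay 31.5 kb past it.

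A second list of 47 germ cell genes outside the 46 was set beside them, without a test of the difference. The shares of other genes given for this list and the next are those of the 21477 genes outside the 46, which include both lists. HP1γ lay at the starts of 4 of these (8.51%, 95% Wilson interval 3.36% to 19.9%), against 0.731% of other protein-coding genes: Tdrd12, a piRNA factor, Spata22, a recombination factor, Fkbp6, a chaperone of the piRNA pathway, and 4930432K21Rik, also named Brme1, a recombination factor. Tdrd12 and Spata22 had HP1γ at chr7:35537402-35537673 and chr11:73329526-73330087, each overlapping an Adnp peak (scores 40.9 and 6.86). Fkbp6 and 4930432K21Rik had HP1γ at chr5:135349937-135350236 and chr8:84148089-84148363, without Adnp within 5 kb of their ends, and the latter peak also lay 172 bp from the start of Cc2d1a. Adnp lay at 8 of the 47 starts (17.0%, 8.89% to 30.1%), against 3.91% of other genes. For Dppa3 and Mcmdc2 the promoter table gave no strand, so either gene end was taken as a start. Their peaks may lie at the far end. Adnp lay within 5 kb of an end in 13 genes (27.7%, 16.9% to 41.8%), against 19.3%. In addition to those of Tdrd12 and Spata22, these were Dppa3 (chr6:122629475-122629800, score 27.2), Gpat2 (chr2:127423862-127424268, 21.7), Gtsf1 (chr15:103430242-103430617, 11.4), Mcmdc2 (chr1:9944550-9945270, 31.2), Mlh3 (chr12:85271405-85271873, 38.1) and Tex19.2 (chr11:121118091-121118541, 10.1), each with the score of the peak at the start. Adnp lay within 5 kb of an end and not at a start in Ctcfl (chr2:173097162-173097773, score 92.8), Dkkl1 (chr7:45206914-45207287, 22.0), Prdm14 (chr1:13114750-13115202, 15.0), Terb2 (chr2:122181571-122181821, 9.03) and Ybx2 (chr11:69933574-69934100, 45.5).

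Genes whose products keep germ cell genes silent were also inspected. Of 24 such genes, 3 had HP1γ at a start (12.5%, 95% Wilson interval 4.34% to 31.0%), against 0.731% of other protein-coding genes. E2f6, the transcription factor of the E2F6 word, had it 9 bp from the start at chr12:16810974-16811342. Atf7ip, a cofactor of the H3K9 methyltransferase Setdb1, had HP1γ on its start at chr6:136518769-136519473, overlapping an Adnp peak (score 27.6), and a second HP1γ peak 230 bp away at chr6:136518258-136518621. Hdac2, a histone deacetylase gene, had it 213 bp away at chr10:36973827-36974331. Mga, which binds the E-box with MAX, had HP1γ across one end of its gene model at chr2:119872409-119873277, 23951 bp from the annotated start. Adnp lay at the starts of Atf7ip and of L3mbtl2 (chr15:81663348-81663796, score 17.2), a subunit of the variant Polycomb complex. That is 2 of the 24 genes (8.33%, 2.32% to 25.8%), an interval that includes the 3.91% of other genes. Adnp lay within 5 kb of an end in 10 of the 24 genes, these 2 among them (41.7%, 24.5% to 61.2%), against 19.3% of other genes. The others were Cbx3 (chr6:51484847-51485140, 14.7), Dnmt3b (chr2:153653003-153653326, 27.1), Ehmt2 (chr17:34902091-34902772, 30.4), Mga (chr2:119972358-119972676, 15.5), Rnf2 (chr1:151472091-151472647, 14.6), Rybp (chr6:100282974-100283279, 18.9), Tfdp1 (chr8:13335227-13335585, 33.2) and Uhrf1 (chr17:56298513-56299486, 57.2), each with the position and score of the peak nearest to an end.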

How the data were processed

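ChIP-seq peaks were taken from both lists as deposited by the authors. Per the submitters' processing notes, the tools of the series were MACS2, edgeR, STAR 2.5.0a, Bowtie 1.0.0 and bcl2fastq 1.17, with mm10 (GRCm38) as build and no roles stated. Whether replicates were pooled, and the caller settings: not given in the sources used here. Both lists lack a header, and the labels describe 82 samples in 32 groups, of which the other assays were not analysed here. The deposited Adnp score is the authors' own, of unstated kind and unknown depth, and was used to describe and rank peaks within that list; the HP1γ score is 0 throughout. Positions were read as BED and printed 1-based. Genes came from RefSeq GRCm38.p6, on chromosomes 1 to 19 and X from 3 Mb on; starts and strands came from the RefSeq promoter table (39 of the 46 genes, 17274 of 21523 protein-coding genes), and either gene end stood in for a start elsewhere. Any overlap of a peak with the gene, or with 1, 5 or 20 kb on each side of an end, was counted. The genes, word lists and comparison lists were chosen with earlier results of these data known. Named were genes with a peak inside or within 5 kb, then those with peaks beyond 5 kb, then the rest by role. Of the comparison lists, 47 of 47 and 24 of 24 genes matched, 3 of them by synonym. Overlap counting was tested on simulated data. Versions were matplotlib 3.10.9, pandas 2.3.3, SciPy 1.17.1, NumPy 2.4.6 and Python 3.11.15.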

Additional observations from a re-analysis of the deposited data

How the results depend on the processing

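Most counts kept their size under the alternatives. With Adnp peaks scored at or above the list's median alone, 8 of the 46 genes had Adnp within 5 kb of an end in place of 14 (17.4% against 11.2% of other genes), and 5 had it at a start in place of 9 (10.9% against 2.13%), namely Boll, Dmc1, Meioc, Sycp2 and Tdrkh. With HP1γ peaks free of any overlap with Adnp, 4 genes had HP1γ within 5 kb of an end in place of 7 (8.70% against 1.59%). At a start, an alternative added after seeing the data, 5 had it in place of 8 (10.9% against 0.615%). These alternatives keep fewer peaks by construction. HP1γ at a start was found at 8 genes with 500 bp, 2 kb or peak centres. Peak centres, starts alone and joined peaks left 14 genes for Adnp and 7, 8 and 7 for HP1γ within 5 kb, and 7 genes had the centre of an Adnp peak within 1 kb of a start. No paired analysis was possible because neither list keeps replicates apart, and leaving out replicates could not be run for the same reason. Unknown depth limits all counts: a gene without a listed peak may still be bound. The HP1γ list leaves out peaks with the Adnp motif, so HP1γ at such sites is not counted, and 7 of the 46 genes, Tex15 among them, had no strand.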

Other observations

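Some further genes with germ cell functions stood among the 165 protein-coding genes with HP1γ at a start. They were picked after their values were seen, so they support no count. Bhmg1, whose synonym Meiosin names the partner of Stra8 at the onset of meiosis, had HP1γ over its start at chr7:19118197-19118566 and Adnp within 1 kb of it, while Stra8 itself had neither at its start. Ddx43, a germ cell helicase gene, had HP1γ 111 bp from its start at chr9:78395888-78396119, also with Adnp. Tcam1, a testis adhesion gene, had HP1γ over its start at chr11:106276551-106276792, and Tcfl5, a transcription factor gene of the testis, had it 326 bp away at chr2:180643017-180643347, both without Adnp at the start. The 46 genes made up 0.214% of protein-coding genes and 8 of the 165 with HP1γ at a start (4.85%).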
